A study of Homo sapiens with 18 samples.

Results

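The genes TXNIP, SESN1, SESN2, SESN3, CITED2, CCNG2, KLF6, IRS2, FBXO32 and TRIB1, called the 10 members here, were followed through FOXO3 knockdown in 3 established cell lines. They are described as direct targets of FOXO transcription factors, together with the complete sestrin family, and were taken by symbol from tables that hold 17561 genes, of which 14549 are in all 3 lines. All 10 members were found in every table. BL-41, Namalwa and Jiyoye are Burkitt lymphoma lines, a B cell cancer driven by MYC, and Namalwa and Jiyoye carry Epstein-Barr virus. In each line 1 group received a lentivirus (pRSI12-U6-shUbiC-TagRFP) with a short hairpin RNA (shRNA) that targets FOXO3 messages, and the other received the same vector with a scrambled shRNA. Both groups thus carried the vector and its TagRFP marker, and transduced cells were sorted on day 4. The 6 groups held 3 libraries each, 18 in all. Each line comes from 1 tumour, and the labels do not name more than 1 FOXO3 hairpin.

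FOXO factors are forkhead DNA-binding proteins that growth factor signalling through PI3K and AKT keeps out of the nucleus. When that signalling is low they enter the nucleus and switch on genes of cell cycle arrest, stress resistance, autophagy and protein breakdown, several of which feed back on AKT and mTOR. In the B lineage they are known for roles in B cell development, in quiescence and in the germinal centre, from whose cells Burkitt lymphoma arises. The sestrins are stress-inducible proteins that sense amino acids and hold back the growth kinase complex mTORC1 through the GATOR2 complex. The other members act on redox balance and glucose uptake (TXNIP), transcription (CITED2, KLF6), the cell cycle (CCNG2), insulin signalling (IRS2) and protein degradation (FBXO32, TRIB1).

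The authors' deposited tables give 1 normalized value per group and gene, so the spread between the 3 libraries of a group cannot be shown, and whether single libraries overlap between groups was not analysed here. The standard error (SE) of a change was worked back from the deposited DESeq2 fold change and p, and brackets give 95% intervals. The labels call the libraries triplicates without naming separate cultures, so a p-value reflects the scatter among these libraries alone, and that scatter may be technical. A gene is said to have risen or fallen only at a DESeq2 adjusted p under 0.05. RNA was pooled from many cells, and fewer cells of a type and less RNA per cell cannot be told apart.

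FOXO3 itself was lower with its hairpin, by a log2 fold change of -0.79 (SE 0.14, DESeq2 adjusted p = 3.15e-07) in BL-41 and of -1.09 (SE 0.16, adjusted p = 2.49e-09) in Namalwa in the authors' deposited table. In Jiyoye its value went from 471.2 to 384, a log2 fold change of -0.30 (-0.59 to 0.00) that did not pass (adjusted p = 0.187), so the target of the hairpin did not pass its own test in the libraries labelled Jiyoye FOXO3 shRNA. FOXO1, FOXO4 and FOXO6 were not called in any line. The normalized values of a group summed to between 17065755 and 18459745. Of 12 B cell markers all were in each table, with CD79A at 17157.4, 11315.8 and 1432.1 and PAX5 at 10047.6, 8143.8 and 4674.5 in the scrambled groups of BL-41, Namalwa and Jiyoye, while EBF1 stood at 2.49 in Jiyoye and MS4A1 at 124 in Namalwa. In BL-41, 7 of the 12 B cell markers fell, where 14.2% of all genes did. The sums of 8 measured myeloid markers went from 352.3 to 659.6 there. Of these 8, 4 rose (LYZ, CD14, CD68 and FCER1G), where 14.5% of all genes did, and MPO was near 0 (0.782). The myeloid sums were 414.1 and 484.6 in Namalwa and 344.7 and 378.3 in Jiyoye, and T cell marker sums were 100.4 and 135.8, 5.998 and 6.58, and 405.6 and 458.8 in the 3 lines. The part of these marker changes in the BL-41 results below was not tested.

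FBXO32, SESN1 and TRIB1 rose and SESN2 fell in BL-41, KLF6 fell in Namalwa and TXNIP fell in Jiyoye. CITED2, CCNG2, SESN3 and IRS2 were not called in any line, and no member was called in more than 1. In BL-41 that makes 4 of 10 members, 3 up and 1 down, where 28.7% of the 16001 genes tested were called, 14.5% up and 14.2% down. In Namalwa 1 of 10 was called, down, where 6.41% of genes were, 2.60% up and 3.81% down. In Jiyoye 1 of 10 was called, also down, against 17.4% of genes, 8.69% up and 8.70% down. The members' counts were therefore near the share of all genes in each line. Under a Bonferroni adjustment FBXO32 alone stayed called in BL-41 and KLF6 was lost in Namalwa. No member rose in Namalwa or Jiyoye by the DESeq2 adjusted p, and at an unadjusted p under 0.05 the upward counts there were 0 and 2, where 8.06% and 13.8% of all genes were upward. The median log2 fold change of the 10 members in these lines was 0.24, -0.09 and 0.04, where that of all genes was 0.02, 0.00 and 0.01. The plot of group values by line gives both values of every member.

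**Figure D1:**
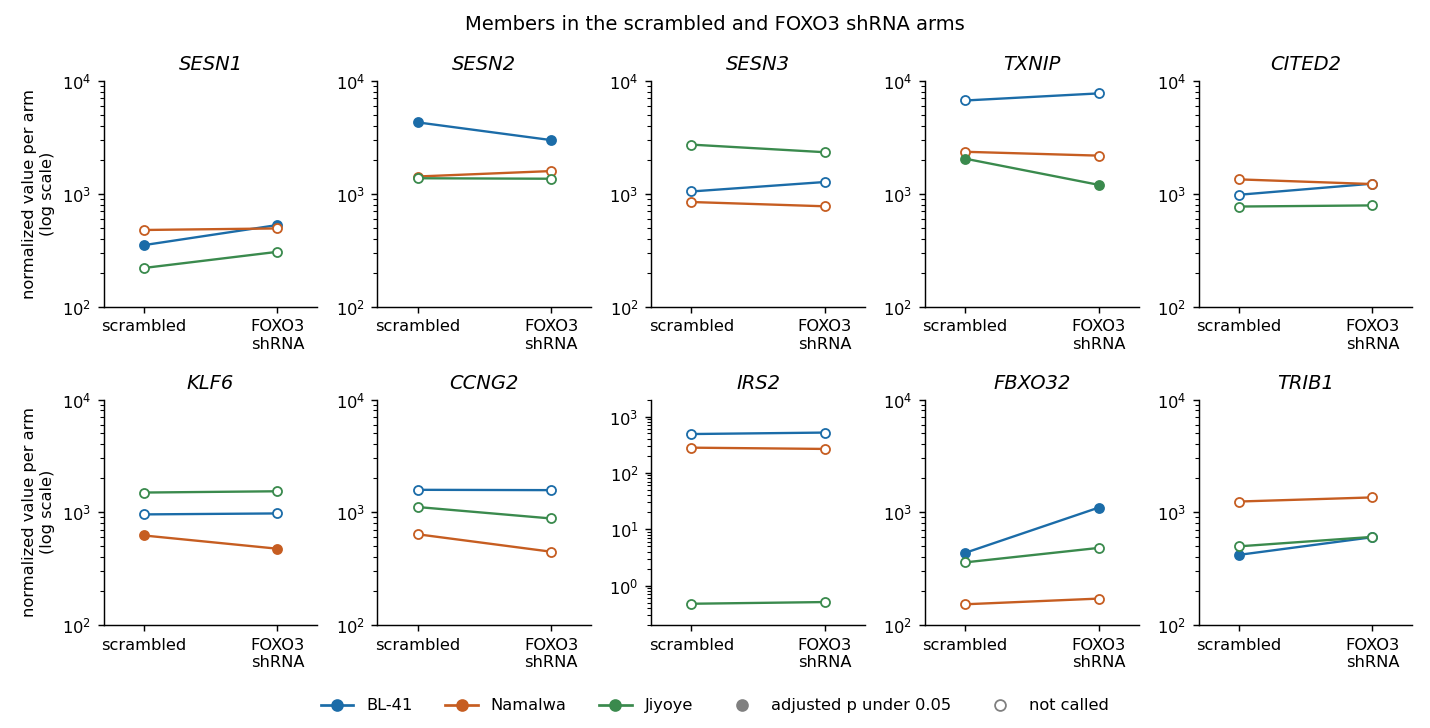
Normalized value of each of the 10 members under the scrambled and the FOXO3 hairpin, for BL-41, Namalwa and Jiyoye, on a log axis, 1 value per group as deposited. The pair of points for FBXO32 in BL-41 lies farthest apart (436.3 and 1099.7), and IRS2 in Jiyoye lies far below all other points (0.477 and 0.511).

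Direction was compared next, since a shared response would give the same sign in every line. SESN1, FBXO32 and TRIB1 had log2 fold changes above 0 in all 3 lines, and CCNG2 alone was below 0 in all 3. Over all genes measured in every line, 25.7% were above 0 throughout and 24.5% below 0 throughout, so 3 and 1 of 10 members are close to or under those shares. The other 6 members changed sign between lines, although most of those values lay within their intervals of 0.

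**Figure D2:**
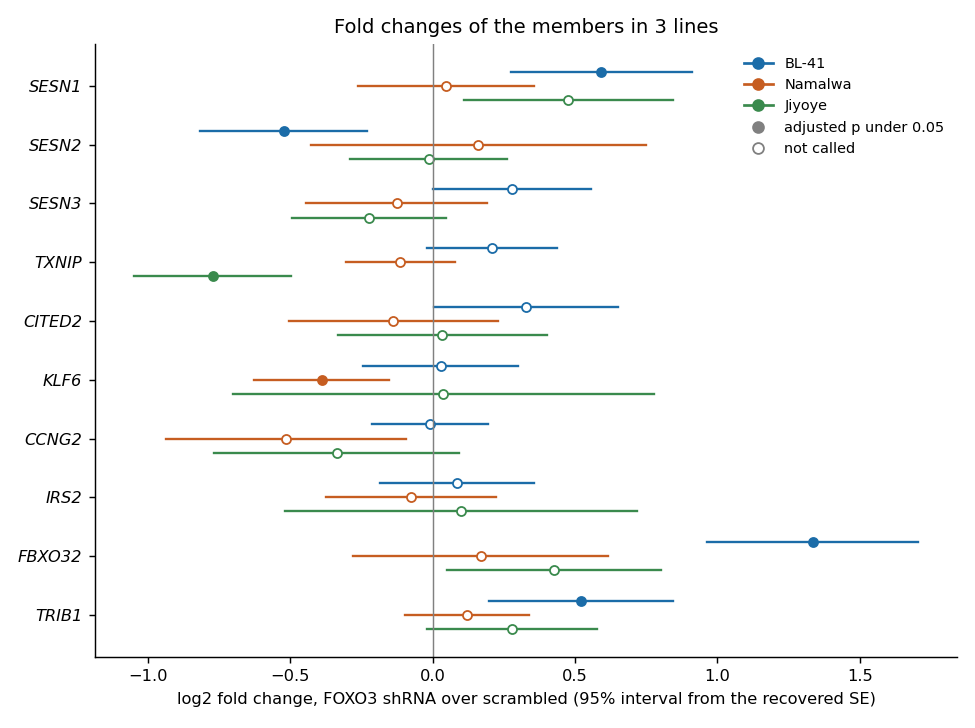
Log2 fold change of FOXO3 shRNA over scrambled shRNA for the 10 members in each line, with 95% intervals from the recovered SE and calls at a DESeq2 adjusted p under 0.05 marked. Called genes hold 6 of the intervals, 4 of them in BL-41, and the widest is that of KLF6 in Jiyoye (-0.70 to 0.78).

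The sestrins split in BL-41, where SESN1 rose while SESN2 fell. SESN1, on chromosome 6 (GRCh38, 108984309 to 109094846, minus strand), is the sestrin first known as a p53 target and is also a FOXO target. In the authors' deposited table its value rose in BL-41 from 350.2 to 528, a log2 fold change of 0.59 (0.28 to 0.91, DESeq2 adjusted p = 0.00169). Jiyoye gave 219.6 and 305.5 for SESN1 in the same tables, a log2 fold change of 0.48 (0.11 to 0.84) that missed the threshold (DESeq2 adjusted p = 0.059) and passed it when p was adjusted over genes with means from 10 upwards (adjusted p = 0.0442). Namalwa gave 477.3 and 492.7 for SESN1, a log2 fold change of 0.05 (-0.26 to 0.36). FOXO3 shRNA thus went with higher SESN1 in BL-41 and with a value of similar size in Jiyoye, and the difference between these lines was 0.12 (adjusted p = 0.887). Between BL-41 and Namalwa it was 0.55 and did not pass (adjusted p = 0.131).

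SESN2, on chromosome 1 (GRCh38, 28259518 to 28282491, plus strand), codes for a leucine-sensing sestrin and is induced by ATF4 in amino acid shortage. Its value in the authors' deposited table fell in BL-41 from 4299.4 to 2993.2, a log2 fold change of -0.52 (-0.82 to -0.23, DESeq2 adjusted p = 0.003). In Jiyoye SESN2 was 1373.1 with scrambled and 1359.5 with FOXO3 shRNA, a log2 fold change of -0.01 (-0.29 to 0.26). In Namalwa SESN2 was 1422.8 and 1590.1, a log2 fold change of 0.16 with a wide interval (-0.43 to 0.75). That SE of 0.30 was larger than those of 99.3% of Namalwa genes averaging at least 100. The BL-41 value of -0.52 lay just below the Namalwa interval, but its own interval (-0.82 to -0.23) overlaps the Namalwa interval. A fall of the full BL-41 size thus lay outside the Namalwa interval, while smaller falls, to -0.43, lay within it. The difference of SESN2 between BL-41 and Jiyoye was -0.51 (-0.91 to -0.11, z test adjusted p = 0.123). That between BL-41 and Namalwa was -0.68 (-1.34 to -0.025, z test adjusted p = 0.235). Neither passed the test after adjustment over all genes, although both intervals, which are not adjusted, lay below 0.

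SESN3, on chromosome 11 (GRCh38, 95165513 to 95232475, minus strand), is described as a FOXO target in several tissues. Its values in the authors' deposited table were 1048.0 and 1271.8 in BL-41 (log2 fold change 0.28, 0.00 to 0.56, DESeq2 adjusted p = 0.135). Namalwa had 845.2 and 774.4 for SESN3 (log2 fold change -0.13, -0.44 to 0.19), and Jiyoye had 2729.2 and 2336.7 (log2 fold change -0.22, -0.49 to 0.05). No line showed a fall of SESN3 that passed, and the lower bounds allow at most a modest one.

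Scaled by gene length and to a sum of 1000000 over all genes of a group, the sestrin messages could be set side by side within a group. SESN2 made up 84.0% of the summed length-scaled sestrin share with scrambled shRNA in BL-41, SESN1 8.35% and SESN3 7.69%. With FOXO3 shRNA in BL-41 the sum went from 162 to 123, and the parts were 72.7% SESN2, 15.7% SESN1 and 11.6% SESN3. In Namalwa the parts were alike in both groups, with SESN2 at 62.0% and 64.8%, SESN1 at 24.2% and 23.3% and SESN3 at 13.8% and 11.9%. Jiyoye stood out by SESN3, which made up 38.5% of the scrambled group's sum and 33.6% with FOXO3 shRNA, beside 51.5% and 52.1% for SESN2 and 10% and 14.3% for SESN1. These parts are descriptions of 1 value per group, with no test.

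TXNIP, on chromosome 1 (GRCh38, 145992435 to 145996579, minus strand), codes for the alpha-arrestin that binds thioredoxin and lowers glucose uptake by taking glucose transporters from the membrane. It fell in Jiyoye from 2048.8 to 1200.1 in the authors' deposited table, a log2 fold change of -0.77 (-1.05 to -0.50, DESeq2 adjusted p = 1.83e-06), or 0.586 times the scrambled value. In BL-41 TXNIP was 6719.5 with scrambled and 7768.7 with FOXO3 shRNA, a log2 fold change of 0.21 (-0.02 to 0.44). Namalwa gave 2357.6 and 2179.3 for TXNIP, a log2 fold change of -0.11 (-0.30 to 0.08). TXNIP was thus called in Jiyoye, where FOXO3 itself was not (log2 fold change -0.30, -0.59 to 0.00), and in neither line where FOXO3 fell. The FOXO3 difference between BL-41 and Jiyoye did not pass (z test adjusted p = 0.136). A link of the TXNIP change to that of FOXO3 was not tested. The change of TXNIP in Jiyoye differed from that in BL-41 by 0.98 (0.62 to 1.34, adjusted p = 1.9e-05) and from that in Namalwa by 0.66 (0.32 to 0.99, adjusted p = 0.0102).

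CITED2 and KLF6 code for regulators of transcription. CITED2, on chromosome 6 (GRCh38, 139371807 to 139374648, minus strand), competes with HIF1A for the coactivators CREBBP and EP300. In the authors' deposited table CITED2 was 979.7 and 1229.4 in BL-41 (log2 fold change 0.33, 0.01 to 0.65, DESeq2 adjusted p = 0.128), 1341.8 and 1219.5 in Namalwa (-0.14, -0.51 to 0.23) and 770.5 and 788.6 in Jiyoye (0.03, -0.33 to 0.40). None passed, and CITED2 was thus neither clearly higher nor clearly lower with FOXO3 shRNA in any line.

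KLF6, on chromosome 10 (GRCh38, 3775996 to 3785209, minus strand), is a zinc finger factor with tumour suppressor roles. It fell in Namalwa from 622.7 to 475.2 in the authors' deposited table, a log2 fold change of -0.39 (-0.63 to -0.15, DESeq2 adjusted p = 0.026). KLF6 was 957.5 and 976.6 in BL-41 (log2 fold change 0.03, -0.24 to 0.30) and 1496.2 and 1535.8 in Jiyoye (0.04, -0.70 to 0.78). The Jiyoye SE of 0.38 exceeded those of 99.0% of Jiyoye genes averaging at least 100, so a fall of the Namalwa size could not be detected or set aside in Jiyoye. KLF6 in Namalwa differed from BL-41 by 0.42 (adjusted p = 0.163), which did not pass, and its call in Namalwa was lost at an adjusted p under 0.01.

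CCNG2, on chromosome 4 (GRCh38, 77157207 to 77170060, plus strand), codes for cyclin G2, an unusual cyclin that restrains the cell cycle. In Namalwa its value in the authors' deposited table was 638.2 with scrambled and 446.9 with FOXO3 shRNA, a log2 fold change of -0.51 (-0.94 to -0.09) at an unadjusted p of 0.017 and a DESeq2 adjusted p of 0.153. Jiyoye gave 1113.1 and 881.2 for CCNG2, a log2 fold change of -0.34 (-0.77 to 0.09). In BL-41 the values were 1582.0 and 1571.6, a log2 fold change of -0.01 (-0.21 to 0.19) with the smallest SE of any member in that line (0.10). CCNG2 was therefore measured closely in BL-41, where any fall beyond 0.21 lies outside the interval, and loosely in the other 2 lines.

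IRS2, on chromosome 13 (GRCh38, 109752695 to 109786583, minus strand), couples the insulin receptor to PI3K. Its values in the authors' deposited table were 488.5 and 518.6 in BL-41 (log2 fold change 0.09, -0.18 to 0.36) and 280 and 265.9 in Namalwa (-0.07, -0.37 to 0.22). In Jiyoye IRS2 was close to 0, with 0.477 and 0.511, and their mean corresponds to about 3 reads over the 6 libraries. How these reads divided between the groups cannot be read from the values. Averaged over both groups and taken relative to the table's total, IRS2 in BL-41 was 967 times its Jiyoye value (331 to 4687, from the Poisson interval of 3 reads, which covers counting error only), and in Namalwa 521 times (178 to 2526). The tables were normalized separately, so such ratios between lines are descriptions. IRS2 was the sole member with a mean under 100 in any line, and its fold change in Jiyoye cannot be read.

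FBXO32, on chromosome 8 (GRCh38, 123497889 to 123541206, minus strand), codes for atrogin-1, the F-box subunit of a ubiquitin ligase known from muscle wasting. It showed the largest change among the members. In BL-41 it rose from 436.3 to 1099.7 in the authors' deposited table, 2.52 times (1.95 to 3.26), a log2 fold change of 1.33 (0.96 to 1.70, DESeq2 adjusted p = 1.28e-10). In Jiyoye FBXO32 was 359.3 and 482.9, a log2 fold change of 0.43 (0.05 to 0.80, DESeq2 adjusted p = 0.111), and in Namalwa 152.7 and 171.5, a log2 fold change of 0.17 (-0.28 to 0.62). The change in BL-41 exceeded that in Namalwa by 1.17 (0.58 to 1.75, adjusted p = 0.00433) and that in Jiyoye by 0.91 (0.38 to 1.43, adjusted p = 0.0197), while Namalwa and Jiyoye differed by -0.26 (adjusted p = 0.832).

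TRIB1, also on chromosome 8 (GRCh38, 125430358 to 125438403, plus strand), codes for a pseudokinase that brings C/EBP factors to the ubiquitin ligase COP1. It rose in BL-41 from 418.9 to 601 in the authors' deposited table, a log2 fold change of 0.52 (0.20 to 0.84, DESeq2 adjusted p = 0.00801). Namalwa gave 1245.5 and 1354.6 for TRIB1 (log2 fold change 0.12, -0.10 to 0.34), and Jiyoye 498.6 and 604.8 (0.28, -0.02 to 0.58). The 3 values were above 0 but only that of BL-41 passed, and none of the differences of TRIB1 between lines did.

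Over the 30 tests of a member between 2 lines, 4 passed, for FBXO32 and TXNIP alone. Between BL-41 and Namalwa 1 of 10 members passed, where 7.01% of 14789 genes did. Between BL-41 and Jiyoye 2 of 10 passed, against 6.25% of 15419 genes, and between Namalwa and Jiyoye 1 of 10, against 2.75% of 14933. At an unadjusted p under 0.05 the counts were 7, 4 and 1 of 10, where 19.3%, 18.7% and 13.2% of all genes were. With each SE enlarged by 1.5 times, 0 members passed in each pair. The share of all genes passing at that setting is not given here, so the loss cannot be called particular to the members. For FOXO3 itself the change in Namalwa was larger in size than that in Jiyoye, with a difference of -0.80 (adjusted p = 0.0174). The difference of FOXO3 between BL-41 and Jiyoye was -0.50 and did not pass (adjusted p = 0.136). That between BL-41 and Namalwa was 0.30 and did not pass either (adjusted p = 0.486).

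**Figure D3:**
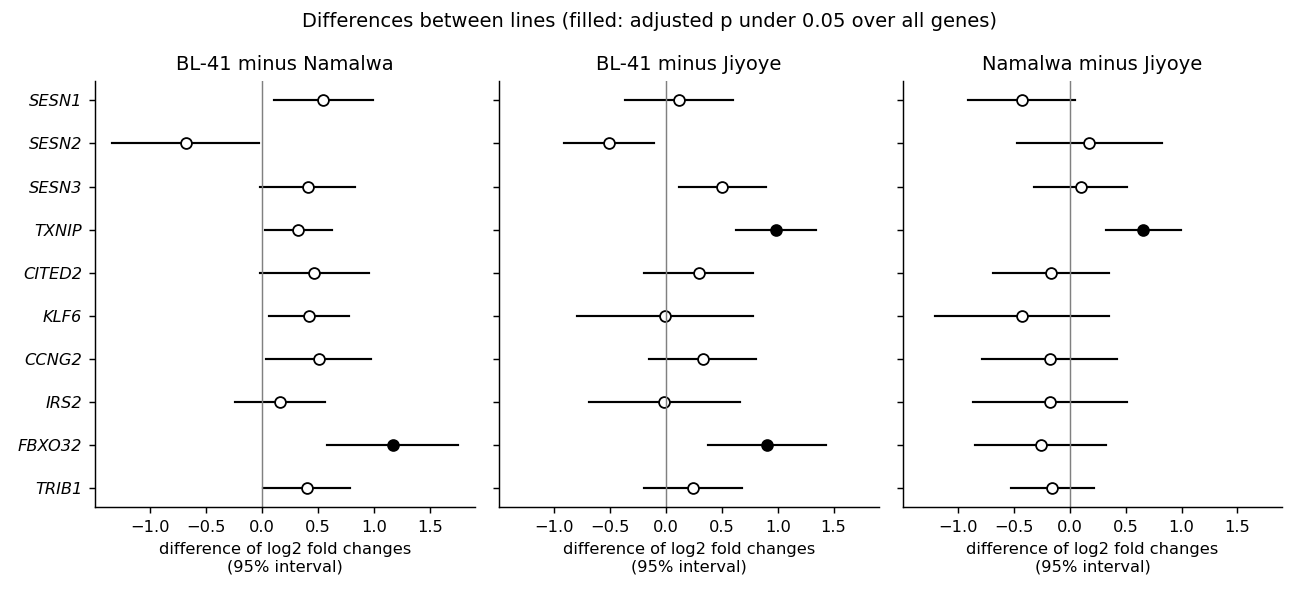
Difference of the log2 fold change between 2 lines for each member, with 95% intervals, for the 3 pairs of lines. The 4 differences past the test are those of FBXO32 (1.17 and 0.91, from BL-41 against each other line) and of TXNIP (0.98 and 0.66, from BL-41 and Namalwa against Jiyoye).

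The levels of the members were ordered by the length-scaled share. TXNIP led in the scrambled group of every line, at 254 (BL-41), 93.0 (Namalwa) and 79.4 (Jiyoye). It was followed in BL-41 by SESN2 (136) and CITED2 (56.9), in Namalwa by CITED2 (81.2), TRIB1 (47.7) and SESN2 (47.0), and in Jiyoye by CITED2 (46.0), SESN2 (44.7), KLF6 (37.0) and SESN3 (33.4). FBXO32 came last in BL-41 (7.24) and Namalwa (2.65), and IRS2 came last in Jiyoye (0.00785). Neighbours such as TRIB1 and SESN2 in Namalwa or CITED2 and SESN2 in Jiyoye are so near each other that no order can be read. With FOXO3 shRNA, FBXO32 reached 17.2 in BL-41 and stood eighth, above SESN3 (14.3), and TXNIP in Jiyoye dropped to 44.7, next to CITED2 (45.2).

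Between lines, the values with scrambled shRNA were compared relative to the group's total, without the length scaling used above. TXNIP stood 2.90 times higher in BL-41 than in Namalwa and 3.15 times higher than in Jiyoye. SESN2 was likewise 3.08 and 3.01 times higher in BL-41, whereas SESN3 was 2.71 times higher in Jiyoye than in BL-41 and 3.43 times higher than in Namalwa. TRIB1 was 2.92 times higher in Namalwa than in BL-41. No test was made, since the tables were normalized separately.

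**Figure D4:**
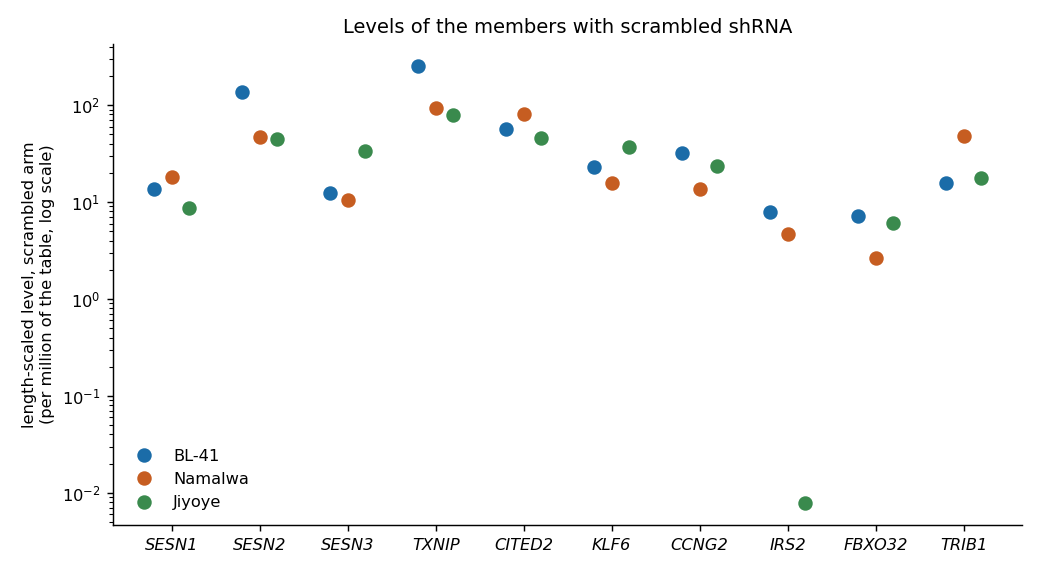
Length-scaled share (all genes of a group sum to 1000000) of each member in the scrambled group of the 3 lines, on a log axis. TXNIP is the highest member in each line (254, 93.0 and 79.4), and IRS2 in Jiyoye lies lowest (0.00785).

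Promoter sequence was examined for the motifs that FOXO factors and other known regulators of these genes use. RefSeq windows (GRCh38.p14) from 250 bases before to 50 after a start site were found for 8 of the 10 members, 13 windows in all. FBXO32 and TRIB1 have no window in that table. The forkhead motif was searched as GTAAACA or ATAAACA on both strands, and 7.43% of all 35116 windows hold it. Among the members TXNIP alone had it. When GTAAATA and ATAAATA were added after the data were seen, the share became 13.6% and SESN1 joined at another of its start sites. The insulin response word CAAAACAA, in 1.68% of windows, was found in IRS2. The E-box CACGTG, in 7.26% of windows, was found in CCNG2, CITED2 and KLF6. The word TGATGNAA, bound by ATF4 with C/EBP factors and present in 3.62% of windows, was found in no member window, SESN2 included. A match is a description of letters and shows no binding, and the absence of one says only that the letters are not in the window.

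Shown here are the windows around the forkhead matches, the insulin response match of IRS2 and the E-box of KLF6, 5′ to 3′ along the gene with the matched letters in capitals. The TXNIP match begins 124 bases before the start site (chr1:145996657-145996743, minus strand), that of SESN1 68 bases before (chr6:109009010-109009096, minus strand), that of IRS2 41 bases before and on the opposite strand (chr13:109786584-109786664, minus strand), and the KLF6 E-box 97 bases before (chr10:3785261-3785346, minus strand).
TXNIP: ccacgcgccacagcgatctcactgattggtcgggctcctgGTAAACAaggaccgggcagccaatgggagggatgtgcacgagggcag
SESN1: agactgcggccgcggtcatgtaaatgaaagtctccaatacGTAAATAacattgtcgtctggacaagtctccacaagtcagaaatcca
IRS2: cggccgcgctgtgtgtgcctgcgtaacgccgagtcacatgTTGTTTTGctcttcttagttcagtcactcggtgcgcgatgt
KLF6: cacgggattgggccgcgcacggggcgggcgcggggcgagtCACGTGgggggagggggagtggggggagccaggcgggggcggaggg

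Other genes of the members' pathways were counted from lists, and the shares of all genes given for each line apply to them too. Of other FOXO target genes 9 of 47 measured rose and 9 fell in BL-41 (median log2 fold change 0.16), 1 of 45 rose and 2 fell in Namalwa (-0.08), and 6 of 48 rose and 3 fell in Jiyoye (0.07). ULK1, the kinase that starts autophagy, rose in every line, by a log2 fold change of 1.04, 0.47 and 1.03 in BL-41, Namalwa and Jiyoye. S1PR1, the receptor for leaving lymphoid tissue, rose by 1.70 in BL-41, and its activator KLF2 rose by 1.06 there. In Namalwa RBL2, a pocket protein, fell by 0.54 on the log2 scale and MXI1, a MYC antagonist, by 0.43. In Jiyoye GABARAPL1, an autophagy protein, rose by 0.75 and YPEL3 by 0.72. The shares of all genes that rose and that fell were 14.5% and 14.2% for BL-41, 2.60% and 3.81% for Namalwa, and 8.69% and 8.70% for Jiyoye, so the list's counts were near the background in Namalwa and Jiyoye, and equal in both directions in BL-41.

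Partners of the sestrins, the GATOR and KICSTOR complexes and Rag GTPases that tell mTORC1 of amino acids, gave 6 of 27 up and 5 down in BL-41, 1 up and 2 down in Namalwa and 3 up and 2 down in Jiyoye, with medians of 0.03, -0.07 and 0.01. Over all genes 28.7%, 6.41% and 17.4% were called in either direction, and the list's 5 of 27 in Jiyoye was near that share. WDR59, a subunit of GATOR2, fell in all 3 lines, with log2 fold changes of -0.72, -0.43 and -0.73. MIOS, another GATOR2 subunit, fell in all 3 as well, with -0.51, -0.37 and -0.67. In BL-41 CASTOR2, of the arginine sensor family, rose by 1.10 and the Rag GTPase gene RRAGC by 0.97, while RRAGB rose by 0.64 in Namalwa and SEC13 by 0.41 in Jiyoye.

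SESN2 fell in BL-41 together with other ATF4 targets. Of 20 genes in the ATF4 list, which holds SESN2 itself, 12 fell in BL-41 and 0 rose by DESeq2, with 1 upward at an unadjusted p under 0.05, and the median was -0.49. Of all genes 14.2% fell there, and SESN2 is 1 of the 12. ASNS, which makes asparagine, fell by 1.15 on the log2 scale, the amino acid transporter SLC7A5 by 1.07 and ATF5 by 0.95. In Namalwa 1 of 20 fell (ASNS, -0.40) and 0 rose, also at an unadjusted p, with a median of 0.02. In Jiyoye 5 of 20 fell and 1 rose with a median of 0.09, and ASNS (-0.85), PSAT1 (-0.75) and CTH (-0.69) led the falls. Of all genes 3.81% fell in Namalwa and 8.70% in Jiyoye. The p53 list, which holds SESN1 and SESN2, gave 7 of 25 up and 4 down in BL-41 (median 0.15), where PLK3 rose by 1.14 and 14.5% and 14.2% of all genes rose and fell. In Namalwa 0 of 24 rose by DESeq2, with 1 at an unadjusted p under 0.05, and BTG2 fell by 0.63. In Jiyoye 0 of 25 rose, with 3 at an unadjusted p, and DDB2, TP53I3 and FDXR fell by 0.72, 0.82 and 0.37.

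Relatives of the single members were counted as well. Of the thioredoxin system and the alpha-arrestins 2 of 13 rose and 2 fell in BL-41, and 1 of 13 rose and 1 fell in Namalwa. In Jiyoye 3 of 14 rose with 0 down by DESeq2, also at an unadjusted p under 0.05, where 13.9% of all genes were downward. TXN, the thioredoxin that TXNIP binds, rose by 0.39 on the log2 scale in Jiyoye, where TXNIP fell. ARRDC4, the closest relative of TXNIP, fell by 0.67 in BL-41, had 0.24 in Namalwa (not called) and was near 0 in both Jiyoye groups (0.481 and 0.515). For insulin and PI3K signalling, with IRS2 counted apart, 6 of 20 rose and 4 fell in BL-41, 0 rose and 1 fell in Namalwa (1 upward at an unadjusted p by DESeq2), and 7 rose and 1 fell in Jiyoye. PIK3R2 rose by 1.03, SGK1 by 1.57 and INPP5D by 0.72 in BL-41, PDPK1 fell by 0.45 in Namalwa, and INPPL1, PIK3CD and AKT1 rose by 0.72, 0.61 and 0.50 in Jiyoye, while IRS1 was not called in any line.

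Of the ligase and F-box relatives of FBXO32, 3 of 9 measured rose and 1 fell in BL-41. In Namalwa 1 of 8 rose and 0 fell, and in Jiyoye 2 of 9 rose and 0 fell. Over all genes 28.7%, 6.41% and 17.4% were called in BL-41, Namalwa and Jiyoye. The core ligase subunit SKP1 rose by 0.53 on the log2 scale in BL-41. CUL1 rose by 0.42 in Jiyoye and RBX1 by 0.36 in Namalwa. The muscle ligase TRIM63 rose by 1.41 in Jiyoye from a low value (9.04 to 23.96 in the authors' deposited table). Near TRIB1, 1 of 7 measured genes rose and 3 fell in BL-41, and 0 of 8 were called in Namalwa. In Jiyoye 3 of 8 rose and 1 fell. Both other tribbles genes fell in BL-41, TRIB3 by 0.95 and TRIB2 by 0.54. COP1 fell by 0.59 there and by 0.39 in Jiyoye. Of the relatives and partners of CITED2, 2 of 8 measured rose and 1 fell in BL-41. In Namalwa 0 of 9 were called by DESeq2, with 1 upward and 1 downward at an unadjusted p under 0.05. In Jiyoye 2 of 9 rose and 0 fell. The related genes of CITED2 were led by its partner CREBBP, which rose by 0.62 in BL-41 and 0.41 in Jiyoye. CCNG1, the relative of CCNG2, was not called in any line, and the cyclin G partner GAK fell by 0.41 in BL-41 and by 0.39 in Jiyoye.

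**Figure D5:**
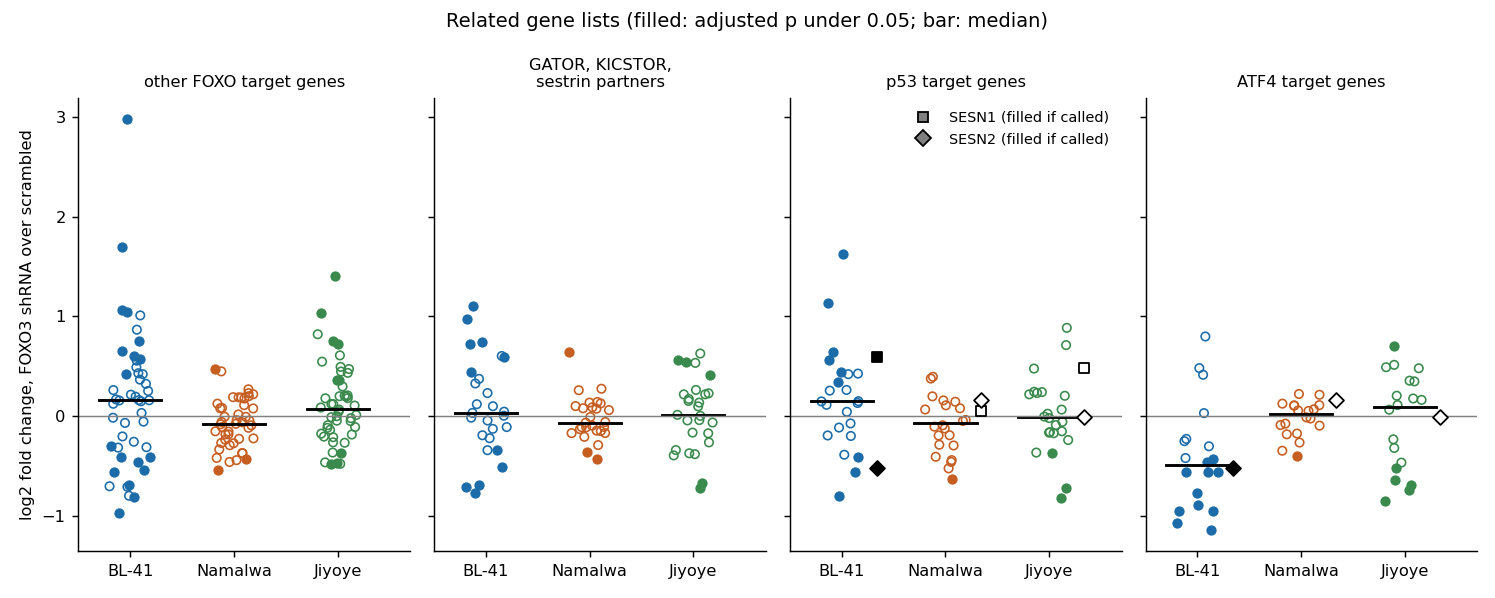
Log2 fold change of the genes in the lists tied to the members, by line, with called genes filled and bars at the medians; SESN1 is drawn as a square and SESN2 as a diamond. In BL-41 the ATF4 list has a median of -0.49, and the other FOXO targets lie on both sides of 0 (median 0.16).

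The genes whose changes over the 3 lines were nearest to those of a member were sought among 8870 genes that average at least 100 everywhere, by the Euclidean distance over 3 log2 fold changes. Nearest to FBXO32 were C16orf54 (distance 0.09) and RHOC (0.14), to TXNIP TSPYL4 and CCDC150 (both 0.12), and to SESN1 DAG1 (0.03) and SNRK (0.04). When each axis was scaled by its SE, the 2 nearest genes of each of these members were all different.

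Annotation in the deposited tables tied the 3 sestrins by the terms GATOR2 complex (held by 11 genes), negative regulation of TORC1 signalling (14) and regulation of the response to reactive oxygen species (3). TXNIP, SESN2 and IRS2 shared the response to glucose (48 genes). Exons of SESN1, SESN3 and IRS2 overlap a gene on the opposite strand over 4.99%, 0.926% and 1.41% of their exonic bases (GENCODE 44). Whether reads were counted by strand is not given in the sources used here, so reads from such overlaps cannot be told apart.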

How the data were processed

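Libraries were made from oligo-dT-enriched RNA, per the labels' protocols. The authors filtered reads with SOAPnuke (series' design text) and used Bowtie2, RSEM, DESeq2 and hg38, per the submitters' processing notes; versions and annotation are not given in the sources used here. For each line the authors deposited 1 table, with 1 normalized signal value per gene and group. The deposited log2 fold change, of FOXO3 shRNA over scrambled shRNA, is moderated towards 0, and it equals the ratio of the group values (largest difference 1.39e-14). The group values thus carry the same moderation, and so do the shares and level ratios made from a single group. The p-value and adjusted p-value that the authors deposited are those of their DESeq2 test, and the latter was recomputed by the Benjamini-Hochberg method (largest difference 2.55e-15).

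The planned count test per library was not possible with 1 value per group, so calls are the authors' (adjusted p under 0.05). Each fold change's SE was taken as its size over the normal quantile of its p; its median was 0.144, 0.127 and 0.149 in BL-41, Namalwa and Jiyoye over genes averaging at least 100. Moderation makes the changes of low genes understated. Its strength may differ between lines, which would enter the differences between lines and was not tested. A z test, adjusted over all genes in both lines of a pair, compared lines. The length-scaled share is the value over the deposited gene length, scaled to a sum of 1000000 per group. The alternatives were other thresholds, adjustments, mean minimums, SE sizes, scalings of levels and motif words.

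Named genes were the 10 members, the FOXO genes, up to 3 called genes of smallest adjusted p per list and line, 8 relatives of members, and 2 genes most like each of 3 members. The members and lists were chosen with earlier results of these data known. Lists of immediate early genes and of epithelial, stromal and NK cell markers were counted too. Gene positions and promoters are from RefSeq (GRCh38.p14). The scripts ran in Python 3.11.15 with scipy 1.17.1, pandas 2.3.3, numpy 2.4.6 and matplotlib 3.10.9.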

Additional observations from a re-analysis of the deposited data

Results flagged for a closer look

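Tests of a difference between 2 lines passed for a member 4 times, each adjusted over all genes of the pair. FBXO32 changed more in BL-41 than in Namalwa, with a difference of 1.17 on the log2 scale (SE 0.30, adjusted p = 0.00433), and more in BL-41 than in Jiyoye, with a difference of 0.91 (0.38 to 1.43, adjusted p = 0.0197). TXNIP differed by 0.98 between BL-41 and Jiyoye (0.62 to 1.34, adjusted p = 1.9e-05) and by 0.66 between Namalwa and Jiyoye (0.32 to 0.99, adjusted p = 0.0102), with the lower value in Jiyoye both times. Both differences of FBXO32 use the same BL-41 value and both of TXNIP the same Jiyoye value, so they are not independent.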

How the results depend on the processing

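No paired analysis was possible because the deposited tables hold 1 value per group and the libraries carry no value of their own. For the same reason leaving out a library and a comparison of DESeq2 with edgeR were not run, and a planned comparison of the sestrin proteins was not run either. Under a Bonferroni adjustment 1 member (FBXO32) and 1212 genes were called in BL-41, where the main counts were 4 and 4591. In Namalwa the call of KLF6 was lost at an adjusted p under 0.01, with a fold change of at least 0.5 required as well, and under Bonferroni, which left 0 members and 526, 456 and 204 genes of 985. In Jiyoye, p adjusted over genes averaging 10 or 100 and above gave 2 members, SESN1 joining TXNIP (adjusted p = 0.0442 and 0.0404), and 1853 genes at 0.01 and 682 under Bonferroni were called of 2919. With the SE enlarged by 1.5 times, 0 members passed the difference test in each pair of lines, the adjusted p becoming 0.44 and 0.646 for FBXO32 and 0.0815 and 0.869 for TXNIP. That setting enlarged the SE of every gene, and the share of all genes still passing is not given here. Of 178 alternative values for a member's fold change 170 stayed on the same side of the threshold, most of them uncalled throughout, 6 lost a call and 2 gained one, and all 30 level ratios kept their direction under a median-of-ratios scaling. Of 234 list counts 72 moved by more than 1.5 times. Apart from centring on the median, these settings keep the deposited fold changes, so they could not show a reversal of a member's direction. The recovered SE was not checked against libraries, and depth limits IRS2 in Jiyoye.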

Other observations

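Immediate early and stress genes, a group not described above, gave 6 of 14 measured up and 2 down in BL-41, with a median log2 fold change of 0.36. Of all genes 14.5% rose and 14.2% fell there. IER3 rose by 1.81, IER2 by 0.92 and ZFP36, which destabilises messages of inflammation, by 0.81. In Namalwa and in Jiyoye 0 of 14 were called by DESeq2, and 0 had an unadjusted p under 0.05 in either direction. Of all genes 6.41% and 17.4% were called in these 2 lines. Whether the list differs between lines was not tested.

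The gene length that the authors' deposited tables give differed between lines for some members. TRIB1 had 3021, 3060 and 3299 bases in BL-41, Namalwa and Jiyoye, a ratio of 1.09, and SESN1 had 2904, 3052 and 2912, a ratio of 1.051. Lengths were equal in the 3 tables for 48.6% of genes. Transcript use was not analysed here.

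IRS2 and ARRDC4 were both near 0 in Jiyoye (0.477 and 0.481 with scrambled shRNA), and both were well measured in BL-41 (488.5 and 303.6) and Namalwa (280 and 441.8).

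Epithelial, fibroblast and endothelial, and NK cell markers had at most 1 gene called in each list and line. Over all genes 28.7%, 6.41% and 17.4% were called in BL-41, Namalwa and Jiyoye.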
